A study of Arabidopsis thaliana with 24 samples.

Results

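Root tips of the Arabidopsis mutant gun1-101 were compared on spectinomycin and on control medium, 3 libraries a side. The comparison takes in 6 of the 24 libraries of the study and all genes that could be tested. It shows which transcripts differed between medium with spectinomycin, an inhibitor of plastid translation, and control medium in a plant with a mutated GUN1. Plastid translation itself was not measured. All 6 libraries share the genotype gun1-101 and differ in the treatment. Seedlings grew for about 5 days on Murashige and Skoog medium with sucrose, and the treated ones were then moved to medium with 10 mg/L spectinomycin. For the time on the antibiotic the treatment protocol has 16 h, whereas the text on the series has 24 h, which was not resolved. The control libraries are recorded with the same age at transfer and the same times. Root tips of about 0.5 cm were cut, and RNA selected for poly(A) was sequenced. Wild type (WT, genotype Col in the labels) under the same treatments, 3 libraries each, is the comparison, and it shares no library with gun1-101. The labels give neither the lesion of gun1-101 nor the number of seedlings in a library. They call the libraries biological replicates, and their batch tag has 1 value per group, so that batch and group cannot be told apart.

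Spectinomycin binds the small subunit of bacterial-type ribosomes and stops protein synthesis in plastids. GUN1 is a pentatricopeptide-repeat protein of the plastid that takes part in signalling from plastid to nucleus, and gun mutants are known in leaves for keeping nuclear photosynthesis genes active when plastids are damaged. Plastids of root tips are not green, but they house parts of nitrogen and sulfur assimilation and make precursors of hormones and defence compounds.

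GUN1 (AT2G31400) itself stood at 82, 81.6 and 93.8 CPM (counts relative to the TMM-scaled size of each library) in the 3 gun1-101 control libraries and at 77.7, 77.3 and 80.8 CPM on spectinomycin. All 6 lay below the WT libraries, which held 144 to 150.1 CPM on control medium and 138 to 145 CPM on spectinomycin. The response of GUN1 in gun1-101 was not called (a log2 fold change of -0.13 ± 0.051 at an adjusted p = 0.11), and a count over the gene does not show whether its transcripts were intact. The transcription factor NAC103 (AT5G64060), which the study pairs with GUN1, stood at 0.568 to 0.687 CPM and then at 0.274 to 0.676 CPM (a log2 fold change of -0.37 ± 0.39 at an adjusted p = 0.67). Adjusted p-values are from edgeR's quasi-likelihood test with Benjamini-Hochberg adjustment over 19567 genes, a gene is called at an adjusted p under 0.05, ± is the standard error of a log2 fold change, and rose and fell are used of called genes.

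The 6 gun1-101 libraries held 13012588 to 15777912 counts. Pairs within a group were much alike, with a chi-square per degree of freedom over genes of 1.74 to 2.47. The second WT control library (replicate 2) was unlike the other WT controls, at 8.68 and 8.75 against 1.79 between those others, and its antenna-protein transcripts summed to 810 CPM against 474 and 482 CPM. It does not enter the gun1-101 means, but it enters the shared estimate of spread and every comparison with WT. The 53 called differences from WT that are listed at the end for single genes were also called without it. Called differences of 2 further named genes are not among these 53. They are BCAT-2 (0.19 ± 0.061, adjusted p = 0.020) and GER2 (0.98 ± 0.37, adjusted p = 0.045).

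In gun1-101, 2188 of 19567 genes (11.2%) were called between spectinomycin and control medium, of which 630 rose (3.22%) and 1558 fell (7.96%). The changes were small. The median size among called genes was 0.30 on the log2 scale, and 76 genes fell (0.388%) and 17 rose (0.0869%) at least 2-fold, where DESeq2 gave 36 such falls and 4 such rises. None of the 17 reached a mean of 5 CPM in either group, where 29 of the 76 did. The libraries of the 2 groups do not overlap for 5782 genes (29.5%). The excess of falls depends on the scaling between libraries: with raw library sizes in place of TMM factors, 1427 genes rose and 1027 fell, so that rises made up 58.1% of the calls against 28.8%. The count of rises also moved with single libraries, to 407 without gun1-101 control replicate 1, 408 without control replicate 3 and 416 without spectinomycin replicate 1.

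At the same test more genes were called in WT root tips, 7939 (40.6%), with 3938 up (20.1%) and 4001 down (20.4%). These shares, and those of gun1-101 above, are the background for the list counts below. With raw library sizes 6542 rose and 2954 fell in WT. Of the genes called in gun1-101, 1374 were also called in WT in the same direction, which is 62.8% of the gun1-101 calls and 17.3% of the WT calls. For 624 of them the difference between the responses was not called, which does not show that they were equal. For 724 the response was smaller in gun1-101 and for 26 it was larger. A further 196 genes changed in opposite directions. The remainder were called in gun1-101 and not in WT, and 268 of these differed from WT by the test of the difference. Without WT control replicate 2 those 5 counts were 582, 741, 23, 222 and 243. Across genes the responses of the 2 genotypes had a Pearson r of 0.24, a description over 19567 genes that share their libraries.

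The 892 genes that fell at least 2-fold in WT (4.56%) had a median log2 fold change of -1.72 there and of -0.24 in gun1-101, where 402 fell, 27 rose and 463 were not called. The 208 that rose at least 2-fold in WT (1.06%) had medians of 1.27 and 0.24, and 32 of them rose in gun1-101. The difference between the responses was called for 813 of the 892 and for 128 of the 208, against 4802 of all genes (24.5%). The WT response chose these genes, so their counts are a description.

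**Figure D1:**
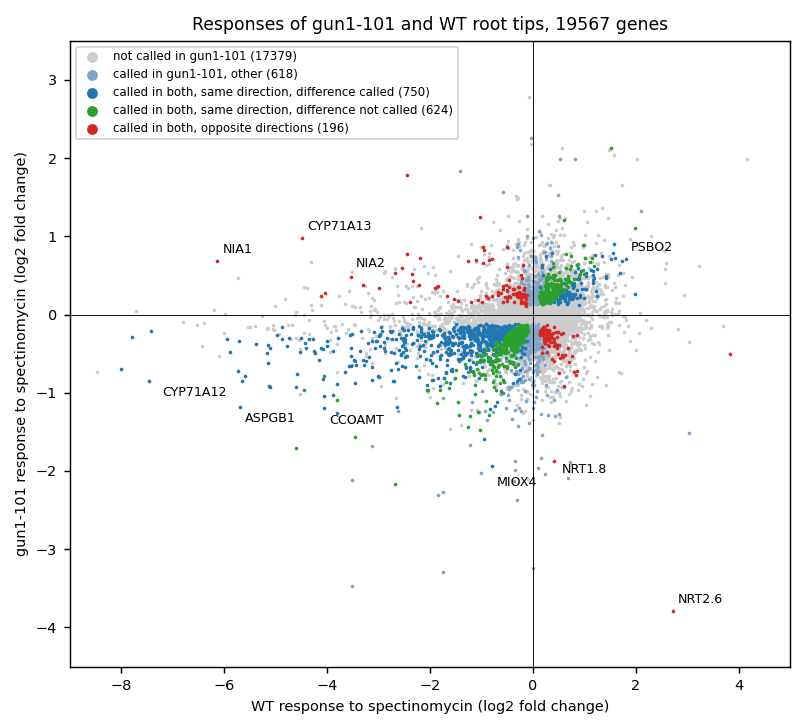
Each point is 1 of 19567 genes, with its log2 fold change on spectinomycin in WT on the x axis and in gun1-101 on the y axis; colours give the calls, and 4 genes lie outside the axes. The cloud is wide along the WT axis and narrow along the gun1-101 axis, and NRT2.6 lies at -3.79 in gun1-101 and 2.71 in WT.

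Nitrate transporters gave some of the largest falls. Roots take up nitrate through NRT transporters and reduce it through nitrate reductase and nitrite reductase. NRT2.6 (AT3G45060), of the high-affinity nitrate transporter family, had 18.7, 16.3 and 19.8 CPM in the gun1-101 controls and 1.77, 1.1 and 1.05 CPM on spectinomycin. In WT it had 0.733, 0.401 and 0.998 CPM on control medium and 4.1, 5.21 and 4.35 CPM on spectinomycin. The groups do not overlap in either genotype and move in opposite directions. In gun1-101 (a log2 fold change of -3.79 ± 0.17 at an adjusted p = 7.6e-21) this was the largest fall among genes with a symbol and a mean of 5 CPM, and in WT the transcript rose (a log2 fold change of 2.71 ± 0.24 at an adjusted p = 9.4e-13).

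NRT1.8 (AT4G21680), which takes nitrate back out of the xylem sap, had 75.9, 79.9 and 84.6 CPM in the controls and 21.8, 21.3 and 22.3 CPM on spectinomycin. Every treated library lay far below every control (a log2 fold change of -1.88 ± 0.071 at an adjusted p = 3.5e-23). In WT it stood lower, at 10.1 to 10.8 CPM, and rose to 12.5 to 15 CPM (log2 fold change 0.41 ± 0.095). In nac103-11 NRT1.8 fell by more than in gun1-101 (log2 fold change -3.56 ± 0.067), and in NAC103-OX it was not called. WR3 (AT5G50200), a partner protein of the high-affinity transporters, fell in gun1-101 and in WT, in gun1-101 from 247 to 270.2 CPM to 172 to 195 CPM (a log2 fold change of -0.47 ± 0.053 at an adjusted p = 1.2e-08). LBD39 (AT4G37540), a repressor of nitrate-responsive genes, fell by 0.39 in gun1-101 and by 0.39 in WT on the log2 scale.

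Both nitrate reductases went the other way. NIA1 (AT1G77760), a nitrate reductase, had 20.4, 18.3 and 17.3 CPM in the gun1-101 controls and 29.3, 30.9 and 30.5 CPM on spectinomycin, with no overlap (a log2 fold change of 0.69 ± 0.13 at an adjusted p = 9.2e-04). In WT the same transcript fell from 48.7 to 68.3 CPM to 0.537 to 1.2 CPM (log2 fold change -6.13 ± 0.20). NIA2 (AT1G37130), the major nitrate reductase, rose in gun1-101 from 616, 631 and 629 CPM to 877, 874 and 869.7 CPM (a log2 fold change of 0.48 ± 0.043 at an adjusted p = 2.0e-11). In WT it fell from 731 to 809 CPM to 62.4 to 67.4 CPM (log2 fold change -3.54 ± 0.050). HRS1 (AT1G13300), a GARP transcription factor of the nitrate and phosphate response, had log2 fold changes of 0.43 ± 0.066 in gun1-101 and -2.33 ± 0.067 in WT. LBD39 and HRS1 were chosen after their values were seen.

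Of the 18 tested genes of nitrate uptake and reduction, 3 rose and 7 fell in gun1-101, with a median log2 fold change of -0.07 against -0.01 over all genes. With raw library sizes 4 of them fell. In WT 4 rose and 13 fell, with a median of -0.39 against 0.03. The difference between the responses was positive for 9 and negative for 3 of the 18.

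Genes that plants switch on when sugar or light runs short also fell. Asparagine synthetase, the dark-inducible DIN genes and branched-chain amino acid transaminase remobilize nitrogen and carbon when energy is low. ASN1 (AT3G47340), the asparagine synthetase, had 518, 506 and 493 CPM in the gun1-101 controls and 259, 256 and 255 CPM on spectinomycin. The groups lie far apart, and the libraries within each are close together (a log2 fold change of -0.98 ± 0.046 at an adjusted p = 2.0e-20). In WT the level was lower on both media, 113 to 126 CPM and 70.1 to 83.3 CPM (log2 fold change -0.62 ± 0.050), and the fall in gun1-101 was the larger by 0.36 on the log2 scale (adjusted p = 4.8e-05).

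SEN1 (AT4G35770), a senescence- and dark-induced gene, fell in gun1-101 from 338 to 357 CPM to 196 to 199.8 CPM (log2 fold change -0.81 ± 0.052) and in WT by more (log2 fold change -1.73 ± 0.057). BCAT-2 (AT1G10070), the transaminase, fell by 0.59 on the log2 scale in gun1-101, and DIN10 (AT5G20250), of the raffinose synthase family, by 0.28. In WT they fell by more, 0.78 and 1.12. Of the 5 genes of the carbon starvation list, 4 fell and none rose in gun1-101, with a median log2 fold change of -0.59. In WT 5 of 5 fell, with a median of -0.83. The difference between the responses was called for all 5. It was positive for 4, which fell less or were not called in gun1-101, and negative for 1, ASN1.

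DIN11 (AT3G49620), a dark-inducible gene for an oxidoreductase, and PCK2 (AT5G65690), a phosphoenolpyruvate carboxykinase that feeds sugar synthesis, fell without a called difference from WT. DIN11 had 49.9, 50.9 and 53 CPM in the controls and 17.6, 18.4 and 19.3 CPM on spectinomycin (a log2 fold change of -1.48 ± 0.083 at an adjusted p = 1.4e-17). PCK2 had 354, 358 and 347 CPM and then 181, 169 and 176 CPM (a log2 fold change of -1.01 ± 0.057 at an adjusted p = 6.0e-16). In neither gene do the groups overlap. In WT both stood lower and fell by 1.02 and 1.13 on the log2 scale. Among genes with a symbol, 5 changed at least 2-fold in both genotypes without a called difference, and the others of these were low, with means of at most 2.04 CPM (WAK5, a wall-associated kinase, in the gun1-101 controls).

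The promoters of ASN1 and DIN11 are shown because each holds the G-box CACGTG, a hexamer bound by bZIP and bHLH factors. They are the 250 bases before the annotated gene start in RefSeq's TAIR10.1, read 5′ to 3′ on the gene's strand, with the G-box in capitals. ASN1 lies on the minus strand (chr3:17441432-17441681) and DIN11 on the plus strand (chr3:18393497-18393746).
ASN1: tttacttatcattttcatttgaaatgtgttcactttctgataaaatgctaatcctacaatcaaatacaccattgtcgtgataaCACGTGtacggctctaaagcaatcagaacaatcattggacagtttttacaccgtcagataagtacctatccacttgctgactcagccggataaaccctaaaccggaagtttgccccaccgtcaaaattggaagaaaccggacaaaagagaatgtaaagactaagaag
DIN11: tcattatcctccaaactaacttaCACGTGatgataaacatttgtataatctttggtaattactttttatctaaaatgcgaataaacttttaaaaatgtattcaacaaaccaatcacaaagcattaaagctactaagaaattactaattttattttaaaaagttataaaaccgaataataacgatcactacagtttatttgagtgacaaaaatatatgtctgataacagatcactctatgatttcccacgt
Counting from 250 bases before to 50 after the start, the G-box was present on either strand in 6.58% of the promoters of the 76 genes that fell at least 2-fold and in 8.67% of all tested genes.

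Further large falls concerned inositol, nitrile and methylglyoxal metabolism. MIOX4 (AT4G26260), a myo-inositol oxygenase, had 65.5, 61.1 and 63.8 CPM in the gun1-101 controls and 16.3, 17.3 and 15.9 CPM on spectinomycin (a log2 fold change of -1.94 ± 0.088 at an adjusted p = 7.1e-21). NIT4 (AT5G22300), a nitrilase of cyanide detoxification, had 156, 160.3 and 173 CPM and then 56.7, 52.4 and 53.6 CPM (a log2 fold change of -1.59 ± 0.067 at an adjusted p = 2.0e-21). In both genes the groups stand well apart. WT held less of each, 5.16 to 8.49 CPM of MIOX4 and 8.2 to 9.19 CPM of NIT4 on control medium, and the falls there were smaller, 0.81 and 0.96 on the log2 scale.

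GLYI7 (AT1G80160), annotated as a glyoxalase I, which clears methylglyoxal, fell from 211, 217 and 216 CPM to 92.2, 90.0 and 96 CPM (a log2 fold change of -1.21 ± 0.049 at an adjusted p = 3.1e-22). UGT85A1 (AT1G22400), a glycosyltransferase, fell from 49.7 to 58.9 CPM to 22.7 to 24.9 CPM (a log2 fold change of -1.17 ± 0.074 at an adjusted p = 4.8e-16). Both fell less in WT. CIPK13 (AT2G34180), a kinase that acts with calcium-sensing CBL proteins, fell by 1.23 on the log2 scale and was not called in WT. ACS2 (AT1G01480), an enzyme of ethylene synthesis, had 10.4, 14.3 and 12.4 CPM and then 5.67, 5.69 and 4.73 CPM (a log2 fold change of -1.2 ± 0.14 at an adjusted p = 1.3e-08). ABR1 (AT5G64750), an ERF repressor of abscisic acid responses, fell by 1.29, and the P450 gene CYP71B22 (AT3G26200) fell from 7.21 to 9.47 CPM to 1.64 to 2.47 CPM. WT held 1 count of CYP71B22 in all on control medium and 2 on spectinomycin. For the others the WT control means were also below those of gun1-101: GLYI7 48.9, UGT85A1 12.1, CIPK13 5.95, ACS2 1.77 and ABR1 3.84 CPM.

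CCOAMT (AT1G67980), annotated as a caffeoyl-CoA methyltransferase, and ASPGB1 (AT3G16150), an asparaginase, fell in gun1-101 but far less than in WT. CCOAMT went from 267, 267 and 263 CPM to 114, 113 and 122 CPM in gun1-101 (a log2 fold change of -1.19 ± 0.050 at an adjusted p = 6.6e-22). In WT it went from 20.1 to 21.2 CPM to 0.86 to 1.64 CPM (log2 fold change -4.07 ± 0.12). ASPGB1 went from 269, 275 and 268 CPM to 119.7, 124 and 115 CPM in gun1-101 (a log2 fold change of -1.18 ± 0.056 at an adjusted p = 1.4e-19), with every treated library below every control. In WT it went from 133 to 160.4 CPM to 2.63 to 3.35 CPM (log2 fold change -5.7 ± 0.091).

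**Figure D2:**
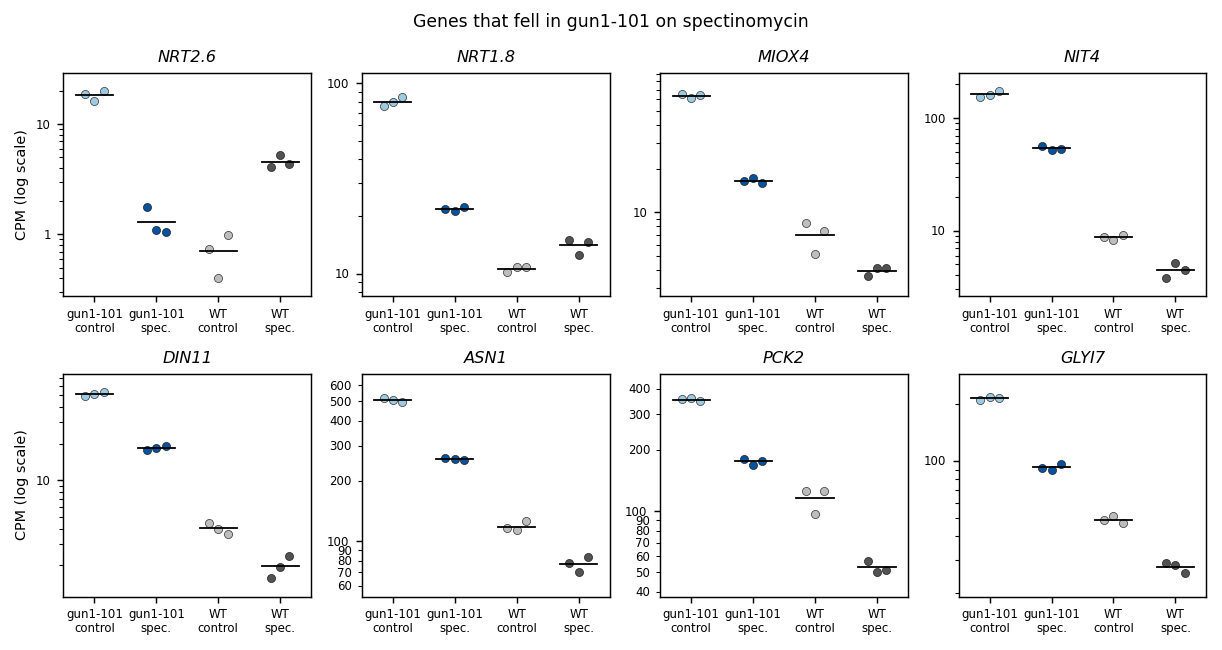
CPM on a log scale in each library of gun1-101 and WT on control medium and on spectinomycin, with a bar at the mean of 3 libraries, for 8 genes that fell in gun1-101. In each panel the 3 treated gun1-101 libraries lie below the 3 controls, and WT moves up for NRT2.6 and NRT1.8.

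The promoters of MIOX4 and NIT4 are printed with matches to TTGACN, the core of the W-box bound by WRKY factors, in capitals on either strand. They cover the 250 bases before the gene start in RefSeq's TAIR10.1, chr4:13297445-13297694 and chr5:7378937-7379186, both on the plus strand.
MIOX4: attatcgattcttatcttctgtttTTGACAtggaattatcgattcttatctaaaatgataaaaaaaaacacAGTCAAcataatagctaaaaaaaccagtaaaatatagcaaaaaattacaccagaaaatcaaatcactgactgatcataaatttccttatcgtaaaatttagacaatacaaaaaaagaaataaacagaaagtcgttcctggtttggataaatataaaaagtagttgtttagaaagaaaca
NIT4: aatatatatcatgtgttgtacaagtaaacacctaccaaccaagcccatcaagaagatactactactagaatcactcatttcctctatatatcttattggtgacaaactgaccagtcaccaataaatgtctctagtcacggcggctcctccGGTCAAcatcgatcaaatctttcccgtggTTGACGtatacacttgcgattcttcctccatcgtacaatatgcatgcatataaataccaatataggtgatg
The W-box core occurred in 67.1% of the promoters of the 76 genes that fell at least 2-fold, in 70.6% of the 17 that rose at least 2-fold and in 51.6% of 19557 tested genes with a promoter sequence. The GATA motif GATAAG was found in 21.1%, 11.8% and 14.6% of the same 3 sets. The GCC box GCCGCC was found in 3.95%, 0% and 2.68%, and the evening element AAAATATCT in 1.32%, 11.8% and 2.98%. The binding motif of NAC factors of the mitochondrial dysfunction response was found in 1.32%, 11.8% and 1.68%. Of the 17 rises, 11.8% is 2 promoters. These are matches of letters in a window of the same length, without a test.

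Of 8 tested heat shock genes of the cytosol, 5 rose in gun1-101 and none fell. Their products hold or refold unfolded proteins, and heat shock factors switch them on. HSP70 (AT3G12580) had 171, 168 and 165 CPM in the gun1-101 controls and 249.7, 259 and 271 CPM on spectinomycin (a log2 fold change of 0.63 ± 0.044 at an adjusted p = 1.3e-14). HSP90.1 (AT5G52640) had 115, 110.5 and 104 CPM and then 179, 164 and 168 CPM (a log2 fold change of 0.63 ± 0.053 at an adjusted p = 3.1e-12). HSP101 (AT1G74310), a disaggregase, had 27.4, 30.8 and 26 CPM and then 41.1, 40.7 and 38.8 CPM (a log2 fold change of 0.52 ± 0.074 at an adjusted p = 1.3e-06). In none of these genes does a treated library overlap a control.

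In WT, HSP70 rose from 150.3 to 156 CPM to 168 to 177 CPM (log2 fold change 0.17 ± 0.044), HSP90.1 fell from 83.5 to 91.4 CPM to 69.8 to 78.6 CPM (log2 fold change -0.19 ± 0.055), and HSP101 was not called (log2 fold change 0.09 ± 0.071). The response in gun1-101 was the higher by 0.46 ± 0.062 for HSP70 (adjusted p = 1.5e-07), 0.82 ± 0.077 for HSP90.1 (adjusted p = 6.5e-12) and 0.43 ± 0.10 for HSP101 (adjusted p = 0.0014). The 8 tested genes of the list had a median log2 fold change of 0.63 in gun1-101 against -0.01 over all genes. In WT 1 rose and 2 fell, with a median of 0.07. The count of 5 became 3 with DESeq2 and without gun1-101 spectinomycin replicate 1 or 2.

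HSP17.4 (AT3G46230), a small heat shock protein chosen for display after its values were seen, had 1.7, 1.68 and 0.944 CPM in the controls and 2.53, 2.67 and 2.1 CPM on spectinomycin. The groups do not overlap (a log2 fold change of 0.74 ± 0.24 at an adjusted p = 0.033). The call was lost without control replicate 3 (log2 fold change 0.53) and without spectinomycin replicate 1 (0.72) or 2 (0.67). Its promoter, the 250 bases before the gene start at chr3:16984868-16985117 on the minus strand of RefSeq's TAIR10.1, is shown because it holds 2 matches to the heat shock element GAANNTTC, in capitals.
HSP17.4: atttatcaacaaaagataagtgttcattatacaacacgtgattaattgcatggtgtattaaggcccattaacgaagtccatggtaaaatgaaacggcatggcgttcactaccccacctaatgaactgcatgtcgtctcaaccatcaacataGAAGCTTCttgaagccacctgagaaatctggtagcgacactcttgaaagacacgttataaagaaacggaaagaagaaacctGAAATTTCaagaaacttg
The heat shock element was added to the motifs after values were seen. It was present in 5 of the 8 heat shock promoters (62.5%) and in 11.4% of all tested genes. Among genes changed at least 2-fold, it was found in 9.21% of the 76 falls and in 5.88% of the 17 rises, which is 1 promoter. The window ran from 250 bases before to 50 after the start.

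Some chaperones inside the plastid rose too, by less. CR88 (AT2G04030), the plastid HSP90, had 67.5, 62.5 and 68.8 CPM in the gun1-101 controls and 98.6, 85.5 and 90.9 CPM on spectinomycin (a log2 fold change of 0.47 ± 0.050 at an adjusted p = 1.9e-09). CPN60A (AT2G28000), a subunit of the plastid chaperonin, had 95.6, 87.3 and 87.5 CPM and then 111, 120.1 and 109 CPM (a log2 fold change of 0.33 ± 0.049 at an adjusted p = 3.3e-06). The groups do not overlap in either gene. cpHsc70-1 (AT4G24280), the stromal HSP70, rose by 0.2 ± 0.044. Of the 15 tested plastid chaperones and proteases, 6 rose and none fell in gun1-101, with a median of 0.10. When any 1 gun1-101 library was left out, 4 or 5 rose. In WT 5 rose and 1 fell, with a median of 0.12, and the difference was called for 1 of the 15. For CR88 and CPN60A, which also rose in WT, it was not called (0.08 ± 0.069 and -0.17 ± 0.068).

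**Figure D3:**
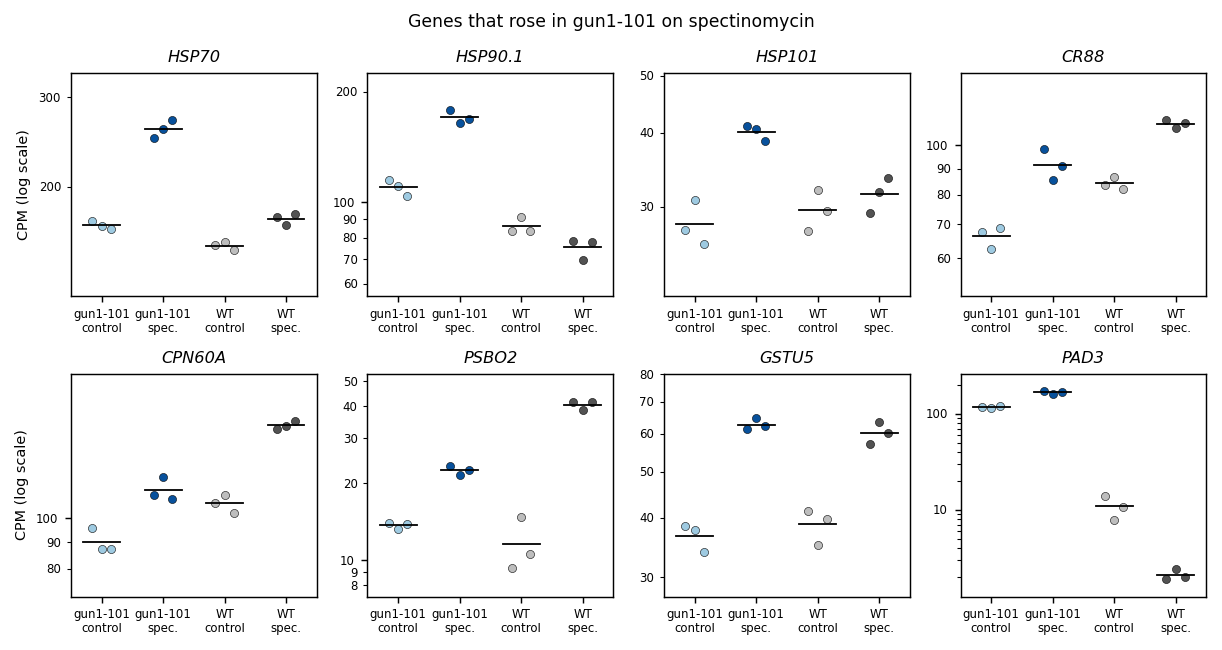
CPM on a log scale in each library of gun1-101 and WT on both media, with a bar at the mean of 3 libraries, for 8 genes that rose in gun1-101. HSP70, HSP90.1 and HSP101 are higher on spectinomycin in gun1-101 than in any WT library, CR88, CPN60A, PSBO2 and GSTU5 also rise in WT, and PAD3 falls in WT.

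Nuclear genes of photosynthesis are the usual readout of gun mutants in leaves. PSBO2 (AT3G50820), a subunit of the oxygen-evolving complex, had 14, 13.2 and 13.9 CPM in the gun1-101 controls and 23.4, 21.5 and 22.5 CPM on spectinomycin, with no overlap (a log2 fold change of 0.71 ± 0.10 at an adjusted p = 2.9e-06). PSBO1 (AT5G66570), its close copy, rose from 75 to 84.4 CPM to 99 to 106 CPM (a log2 fold change of 0.33 ± 0.075 at an adjusted p = 0.0030). Both rose more in WT, by 1.8 and 1.01 on the log2 scale. The response of gun1-101 was the lower by 1.09 and 0.68, or by 1.32 and 0.85 without WT control replicate 2.

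Of 29 tested genes of the photosystems and electron transport, 5 rose and none fell in gun1-101 (median log2 fold change 0.20), where 3.22% of all genes rose, and 25 rose in WT (median 0.60). The difference was called for 15 of the 29, each lower in gun1-101, and for 28 without WT control replicate 2. Among 17 antenna genes 1 rose in gun1-101 (median 0.25) and 15 rose in WT (median 0.78). With DESeq2 none rose in gun1-101, nor without any 1 of the controls or of spectinomycin replicates 2 and 3. Their summed level was 867 to 909 CPM in the gun1-101 controls and 1063 to 1065 CPM on spectinomycin, ranges that do not overlap. In WT it was 474 to 810 CPM and 994 to 1030 CPM. Fitted on the 6 gun1-101 libraries alone, without the spread of the other groups, 12 of the 17 antenna genes and 12 of the 29 photosystem genes rose, where 6% of 18887 genes rose and 9.58% fell. With raw library sizes 2 and 9 rose.

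Of 13 genes of the Calvin cycle and Rubisco, 2 fell and none rose in gun1-101, and none of the falls was called without spectinomycin replicate 2 or 3. Without control replicate 1 or 2 or spectinomycin replicate 1 there was 1, and with raw library sizes 1 fell and 1 rose. With DESeq2 none of the 13 was called. Fitted on the gun1-101 libraries alone, 4 of the 13 rose and 2 fell, where 6% of genes rose and 9.58% fell. The summed level of the 13 was 353 to 360 CPM and then 360 to 400 CPM. RBCS3B (AT5G38410), a small subunit of Rubisco whose near copies can share reads, had 15.1, 15.7 and 11.4 CPM and then 12.9, 13.2 and 11.1 CPM in gun1-101, which overlap and were not called. In WT it rose from 0.122 to 0.86 CPM to 3.26 to 3.72 CPM (log2 fold change 2.81 ± 0.28).

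In tetrapyrrole synthesis, the pathway to chlorophyll and haem, GUN5 (AT5G13630), the large subunit of magnesium chelatase, rose from 35.5, 33 and 30.6 CPM to 45.7, 46.5 and 44.2 CPM (a log2 fold change of 0.46 ± 0.059 at an adjusted p = 1.9e-07) and in WT by 0.66 on the log2 scale. Of the 28 genes, 5 rose and 1 fell in gun1-101, with a median of 0.08. The 5 became 2 without control replicate 3 or spectinomycin replicate 2, and 3 without control replicate 2 or spectinomycin replicate 1, and with raw library sizes 10 rose and none fell. The 1 fall was also lost without control replicate 1 or spectinomycin replicate 1. SIGE (AT5G24120), a sigma factor of the plastid's bacterial-type RNA polymerase, rose from 14.1 to 16.4 CPM to 21.6 to 23.7 CPM (a log2 fold change of 0.61 ± 0.080 at an adjusted p = 2.4e-07), above the WT response by 0.44 ± 0.11. Of 37 plastid ribosomal proteins 1 rose and none fell in gun1-101, where 3.22% of all genes rose, or 4 rose with raw library sizes. In WT 18 of them rose, where 20.1% of all genes rose. In gun1-101 none rose with DESeq2, or without control replicate 2 or 3 or spectinomycin replicate 2 or 3.

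**Figure D4:**
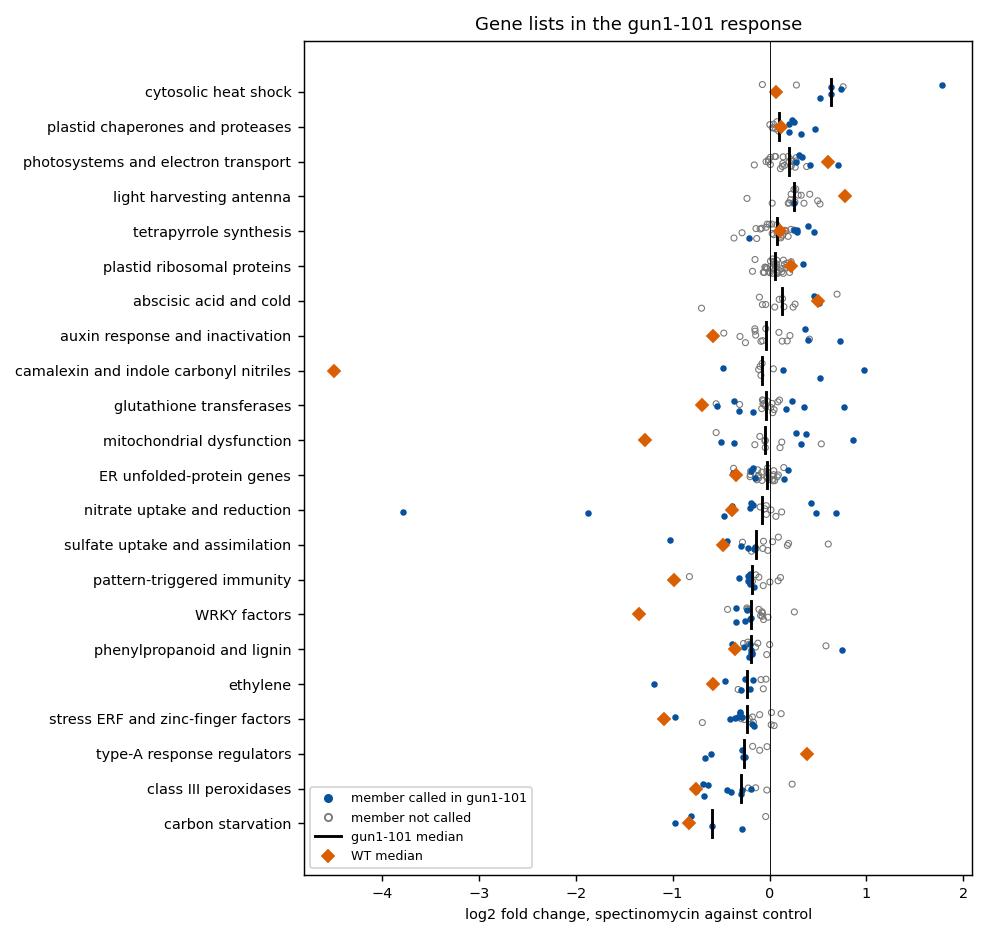
Log2 fold change on spectinomycin in gun1-101 for each tested member of the gene lists, filled where called, with the gun1-101 median as a black tick and the WT median as an orange diamond. Heat shock genes lie to the right and carbon starvation genes to the left, and for the camalexin list the WT median, -4.49, lies far from that of gun1-101, -0.08.

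Several further rises had no list in common. GSTU5 (AT2G29450), a glutathione transferase, had 38.5, 37.7 and 33.9 CPM in the controls and 61.3, 64.7 and 62.2 CPM on spectinomycin (a log2 fold change of 0.77 ± 0.067 at an adjusted p = 6.1e-12). WT held 35.1 to 41.3 CPM and 57 to 63.5 CPM, so that the genotypes overlap on both media, and no difference between the responses was called (0.13 ± 0.092). FRO5 (AT5G23990), a metal reductase of the FRO family, rose from 15.8 to 19.3 CPM to 26.1 to 32.6 CPM (log2 fold change 0.73 ± 0.11) and also rose in WT. ABCB15 (AT3G28345), an ABC transporter, rose from 22.8 to 27.6 CPM to 40.3 to 42.8 CPM (log2 fold change 0.75 ± 0.074), above the WT response by 0.5 ± 0.096. GER2 (AT5G39190), a germin-like protein, rose from 3.18 to 3.43 CPM to 5.67 to 7.06 CPM. It was not called in WT, which held 39 counts in all on control medium and 42 on spectinomycin. The difference between its responses was close to the threshold (0.98 ± 0.37, adjusted p = 0.045). ERD10 (AT1G20450), a dehydrin, rose by 0.51 ± 0.069, and of 13 genes of abscisic acid and cold, 2 rose and none fell, or 4 rose with raw library sizes.

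Among phosphate-starvation genes, SPX1 (AT5G20150), a sensor of phosphate status, fell in gun1-101 from 33.2, 34.3 and 33.7 CPM to 20.8, 20.2 and 20.6 CPM (a log2 fold change of -0.71 ± 0.075 at an adjusted p = 1.2e-09) and was not called in WT. PAP17 (AT3G17790), a purple acid phosphatase, rose from 92 to 104 CPM to 124 to 129 CPM (a log2 fold change of 0.38 ± 0.050 at an adjusted p = 3.3e-07) and rose more in WT. These were the 2 called genes of the 8 tested. Without spectinomycin replicate 1 the list had 2 rises, and with raw library sizes 3.

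Camalexin, indole carbonyl nitriles and indole glucosinolates are tryptophan-derived defence compounds of Arabidopsis, and most genes of the camalexin list fell in WT without falling in gun1-101. CYP71A12 (AT2G30750), a cytochrome P450 of that pathway, had 2006, 2142 and 2064 CPM in the gun1-101 controls and 1910, 1930 and 1965 CPM on spectinomycin, which was not called (a log2 fold change of -0.1 ± 0.047 at an adjusted p = 0.20). In WT it fell from 523 to 604 CPM to 4.86 to 5 CPM (log2 fold change -6.81 ± 0.074). CYP81F2 (AT5G57220), which modifies indole glucosinolates, stood at 1183 to 1284 CPM and at 1237 to 1302 CPM in gun1-101 and fell in WT from 363 to 462 CPM to 5.24 to 5.7 CPM. The responses differed by 6.71 ± 0.089 and 6.25 ± 0.10 on the log2 scale.

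PAD3 (AT3G26830), which makes camalexin, rose in gun1-101 from 116, 115 and 119 CPM to 173, 161 and 167 CPM (a log2 fold change of 0.52 ± 0.079 at an adjusted p = 3.5e-05) and fell in WT from 7.86 to 14 CPM to 1.89 to 2.46 CPM. CYP71A13 (AT2G30770), a near copy of CYP71A12 with which it may share reads, rose from 13.3, 12 and 15.7 CPM to 27.4, 25.6 and 27.7 CPM (a log2 fold change of 0.98 ± 0.10 at an adjusted p = 1.5e-09), the largest rise among genes with a symbol and a mean of 5 CPM. CYP82C2 (AT4G31970), of the indole carbonyl nitrile branch, fell from 429 to 439 CPM to 302 to 316 CPM (log2 fold change -0.48 ± 0.056). Of the 9 genes, 3 rose and 1 fell in gun1-101 and 8 fell in WT, and the difference was called for 8. The 3 rises became 2 with DESeq2 or when any 1 gun1-101 library was left out.

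Several peroxidases and transcription factors of defence fell in gun1-101, mostly by small amounts. PER4 (AT1G14540), which encodes a class III peroxidase, had 1144, 1122 and 1178 CPM and then 977, 961 and 881 CPM (a log2 fold change of -0.29 ± 0.054 at an adjusted p = 2.3e-04). In WT it fell from 263 to 320.1 CPM to 0.821 to 1.61 CPM (log2 fold change -7.78 ± 0.10). The peroxidase genes AT1G14550 and AT5G39580 fell by 0.69 and 0.4 on the log2 scale in gun1-101 and by 8 and 4.78 in WT. Prx37 (AT4G08770), another peroxidase, fell from 254, 267 and 266 CPM to 164, 169.9 and 159 CPM, and its difference from WT was not called (log2 fold changes -0.67 ± 0.064 and -0.76 ± 0.076). Of 13 class III peroxidases 9 fell and none rose in gun1-101 (median -0.30), and 9 fell and 1 rose in WT (median -0.76).

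WRKY29 (AT4G23550) and WRKY15 (AT2G23320), factors of the defence response, fell in gun1-101 by 0.35 and 0.35 on the log2 scale and in WT by 1.37 and 1.62. Of 17 WRKY factors 6 fell and none rose in gun1-101, or 3 without spectinomycin replicate 3, and 15 fell in WT. The share of all genes that fell was 7.96% in gun1-101 and 20.4% in WT. STZ (AT1G27730), a zinc-finger repressor, fell from 632 to 755 CPM to 472 to 565 CPM (a log2 fold change of -0.36 ± 0.062 at an adjusted p = 1.4e-04). Of 20 stress ERF and zinc-finger factors 9 fell and none rose, among them the ERF gene TDR1 (AT3G23230), which fell by 0.97. FRK1 (AT2G19190), a receptor kinase used as a marker of pattern-triggered immunity, fell by 0.22, with 7 of the 16 genes of that list falling and none rising. MYB51 (AT1G18570), a regulator of indole glucosinolates, fell by 0.19. The falls of STZ, FRK1 and MYB51 were smaller than in WT by 2.84, 2.54 and 1.98 on the log2 scale. With raw library sizes 3 WRKY, 7 ERF and zinc-finger and 4 immunity genes fell, still with none rising.

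PAL1 (AT2G37040), the entry enzyme of the phenylpropanoid pathway, fell from 1118, 1109 and 1170 CPM to 907, 851 and 831 CPM (a log2 fold change of -0.39 ± 0.043 at an adjusted p = 4.2e-09), and 8 of 17 genes of phenylpropanoids and lignin fell and 1 rose, or 5 fell with raw library sizes. In WT 9 of these 17 fell and 3 rose. APS1 (AT3G22890), an ATP sulfurylase, which begins sulfate assimilation, fell from 1344 to 1380 CPM to 983 to 1028 CPM (a log2 fold change of -0.44 ± 0.046 at an adjusted p = 8.9e-10). Of 17 sulfate genes 6 fell and none rose, or 3 fell without control replicate 2, without spectinomycin replicate 2 or with raw library sizes. Over all genes 7.96% fell and 3.22% rose in gun1-101. GSTU12 (AT1G69920), a glutathione transferase, fell by 0.31 in gun1-101 and by 5.95 in WT. PXMT1 (AT1G66700), a methyltransferase, stood at 166 to 169.8 CPM and at 163 to 168 CPM in gun1-101, which overlap, and fell in WT by 5.27.

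CYP81D8 (AT4G37370), a P450 used as a marker of oxidative stress and mitochondrial dysfunction, rose in gun1-101 (log2 fold change 0.28 ± 0.072) and fell in WT (-4.05 ± 0.10). Of 15 genes of that response 4 rose and 2 fell in gun1-101 and 13 fell in WT. The 2 became 1 without control replicate 2 or spectinomycin replicate 2 or 3. NAC102 (AT5G63790), a NAC transcription factor, rose from 307 to 320.3 CPM to 357 to 375 CPM in gun1-101 and fell in WT from 242 to 254 CPM to 126 to 137 CPM.

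**Figure D5:**
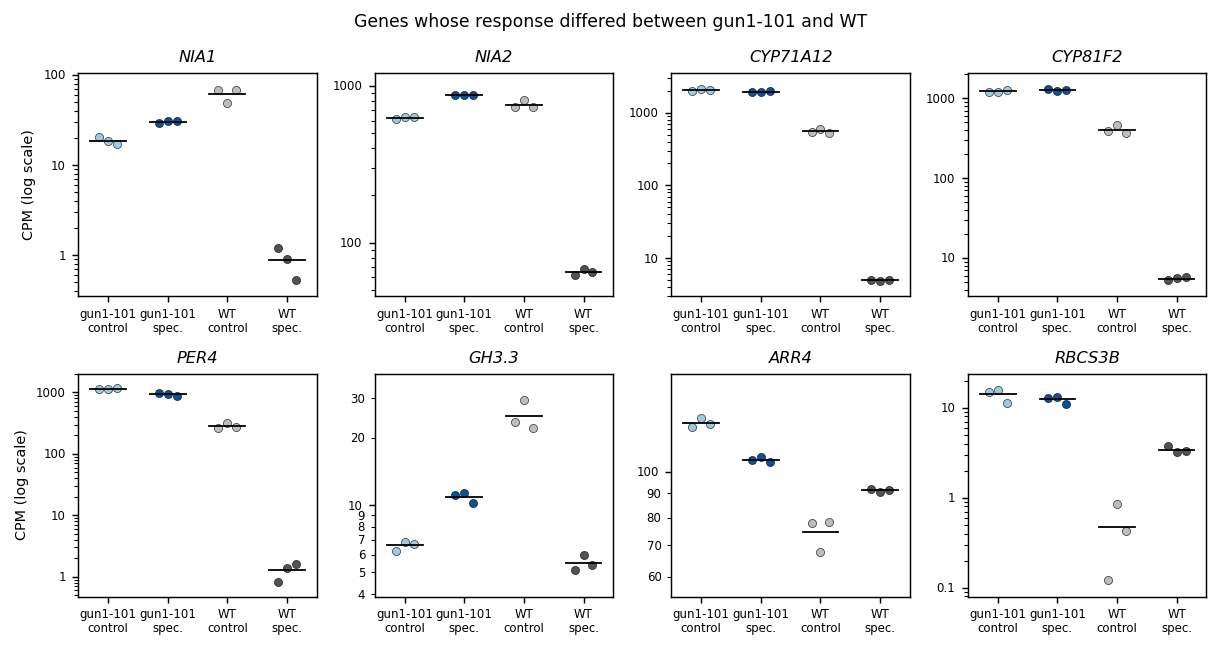
CPM on a log scale in each library of gun1-101 and WT on both media, with a bar at the mean of 3 libraries, for 8 genes whose response differed between the genotypes. NIA1, NIA2, CYP71A12, CYP81F2, PER4 and GH3.3 drop in WT, ARR4 and RBCS3B rise there, and the gun1-101 groups lie closer to each other.

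Type-A response regulators are induced by cytokinin and damp its signalling. ARR4 (AT1G10470) fell in gun1-101 from 124, 129.8 and 126 CPM to 106, 107 and 105 CPM (a log2 fold change of -0.25 ± 0.050 at an adjusted p = 3.0e-04) and rose in WT from 67.6 to 78.3 CPM to 90.6 to 91.8 CPM (log2 fold change 0.29 ± 0.051). ARR3 (AT1G59940) fell from 15.3 to 15.6 CPM to 9.39 to 9.97 CPM (log2 fold change -0.67 ± 0.12) and was not called in WT. RR5 (AT3G48100) fell by 0.28 and rose in WT by 0.33. ARR7 (AT1G19050) fell in both genotypes, in gun1-101 from 6.67 to 7.3 CPM to 4.36 to 5.14 CPM (a log2 fold change of -0.6 ± 0.14 at an adjusted p = 0.0025) and in WT by 0.45, and no difference between the responses was called. Of the 8 tested, 5 fell and none rose in gun1-101 (median -0.26), whereas 6 rose and 1 fell in WT (median 0.38). The difference was called for 6, each lower in gun1-101.

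GH3.3 (AT2G23170), which conjugates auxin to amino acids and is induced by auxin, rose in gun1-101 from 6.24, 6.87 and 6.7 CPM to 11.1, 11.3 and 10.2 CPM (a log2 fold change of 0.73 ± 0.13 at an adjusted p = 8.5e-05). In WT it fell from 22.2 to 29.6 CPM to 5.11 to 6.01 CPM (log2 fold change -2.19 ± 0.11). Of 17 genes of auxin response and inactivation 3 rose and none fell in gun1-101, or 1 without control replicate 3 or spectinomycin replicate 1 or 2, and 5 with raw library sizes. Of 11 genes of auxin synthesis and transport none was called by edgeR or DESeq2, and 1 had an unadjusted p under 0.05. EBF2 (AT5G25350), an F-box protein of ethylene signalling, fell from 840.0 to 873 CPM to 659.7 to 731 CPM (a log2 fold change of -0.29 ± 0.045 at an adjusted p = 5.8e-06), and of 10 ethylene genes 6 fell and none rose. In WT 6 of the 10 fell and none rose. JAZ1 (AT1G19180), a jasmonate repressor that jasmonate itself induces, fell from 341 to 358 CPM to 250.5 to 260.0 CPM (log2 fold change -0.44 ± 0.049), and of 15 jasmonate genes 4 fell and none rose. Beside these counts, 7.96% of all genes fell and 3.22% rose in gun1-101.

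Some genes rose in WT and were not called in gun1-101. CYP710A2 (AT2G34490), a sterol desaturase, had 1.35 to 2.4 CPM and 2.55 to 2.74 CPM in gun1-101 against 1.5 to 3.44 CPM and 12.9 to 14 CPM in WT. TPS12 (AT4G13280), a terpene synthase, had 4.19 to 4.81 CPM and 4.37 to 4.59 CPM against 3.24 to 7.97 CPM and 15.2 to 16.2 CPM. The responses differed by -2.17 ± 0.34 and -1.64 ± 0.30 on the log2 scale.

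Genes of cell division and of cell identity were read as lists of markers. Of 22 genes of G2 and M phase 1 fell and none rose, and none fell with DESeq2, raw library sizes or no filter on low counts, or without any 1 gun1-101 library but spectinomycin replicate 2. Of 29 of G1 and S phase 1 fell and none rose, namely CYCD3;2 (AT5G67260), a D-type cyclin (log2 fold change -0.33 ± 0.073). Over all genes 7.96% fell and 3.22% rose in gun1-101. Of 14 CDK inhibitors and 14 DNA damage genes none was called by edgeR or DESeq2, and 0 and 1 had an unadjusted p under 0.05. Among tissue markers none was at 0 in any of the groups. Of 10 root hair and epidermis markers 1 rose, or none without spectinomycin replicate 2, and none fell, and their summed level was 329 to 352 CPM and then 334 to 353 CPM. That of root cap markers was 12.6 to 14.3 CPM and then 12.4 to 14.4 CPM. That of phloem markers was 473 to 491 CPM and then 473 to 493 CPM, and that of xylem markers 119 to 124 CPM and then 124 to 131 CPM. Endodermis markers went from 242 to 251 CPM to 212 to 216 CPM and stem cell niche markers from 174 to 193 CPM to 171 to 172 CPM, and 2 of 9 and 2 of 11 of them fell, where 7.96% of all genes fell, each count being 0 or 1 when any gun1-101 library was left out or with raw library sizes. The part of cell composition in the results was not tested. In such bulk samples fewer cells of a type and less RNA per cell cannot be told apart.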

How the data were processed

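RNA-seq of root tips was deposited as a table of estimated counts per gene, made by the authors with RSEM 1.3.1 per the submitters' processing notes. The genome build and annotation are not given in the sources used here, nor is use of strand, so overlapping and antisense genes cannot be told apart. Of the deposited expected counts 98.3% were whole (to 1e-09), and all were rounded. The table has 24497 genes, of which 24424 matched RefSeq's TAIR10.1 by locus ID; symbols and promoters come from there. A further 104 columns of the deposited table were not used.

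All 24 libraries (13012588 to 17411882 counts) entered 1 edgeR 4.0.16 quasi-likelihood fit in R 4.3.3 (limma 3.58.1), robust, with TMM factors and filterByExpr (minimum count 10, minimum total 15), and 8 groups as coefficients. Contrasts were gun1-101 on spectinomycin against control, the same in WT, and the difference of both. P-values were adjusted by Benjamini-Hochberg over 19567 genes. Standard errors are the log2 fold change divided by the root of F. CPM use TMM-scaled library sizes and are not per length, so levels are not compared between genes. Nothing says that libraries came from separate cultures beyond the label of biological replicates, so p-values measure the spread between these libraries.

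On simulated counts of 19565 genes with 50 changed genes per fold, the gun1-101 contrast found 9 of the 1.2-fold, 38 of the 1.5-fold, 44 of the 2-fold and 48 of the 4-fold changes. It made 5 false calls. Only 200 genes were changed in the simulation, up or down at random, and every group started from the gun1-101 control means. The real comparison called 2188 genes, mostly falls, so its recovery may differ. Alternatives were DESeq2 1.42.0, other scalings, no count filter, the 2 groups of a contrast alone, a replicate block, a 1.5-fold minimum and leaving out each library.

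Genes named are the 14 largest rises and falls with a symbol, 5 CPM and no overlap, the 10 largest differences from WT each way, genes changed at least 2-fold alike in both genotypes, and up to 4 called genes of each of 47 lists. LBD39, HRS1 and HSP17.4 fall outside this rule. The comparison and the lists (703 genes in the table, 667 tested) were chosen with earlier results of these data known.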

Additional observations from a re-analysis of the deposited data

Results flagged for a closer look

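The response to spectinomycin differed between gun1-101 and WT for 4802 of 19567 genes by the test of the difference itself (edgeR's quasi-likelihood test with Benjamini-Hochberg adjustment), positive for 2681 and negative for 2121. A positive value below means a higher log2 fold change in gun1-101 than in WT, and each is the difference of the 2 log2 fold changes. Among nitrate genes, the differences were NRT2.6 -6.50, NRT1.8 -2.29, NIA1 6.82, NIA2 4.03 and HRS1 2.76. Among the large falls of gun1-101, the differences were MIOX4 -1.13, NIT4 -0.63, GLYI7 -0.38, UGT85A1 -0.44, CIPK13 -1.0, CCOAMT 2.87 and ASPGB1 4.52. Among carbon starvation genes, the differences were ASN1 -0.36, SEN1 0.92 and DIN10 0.84. Among heat shock genes, the differences were HSP101 0.43, HSP70 0.46 and HSP90.1 0.82. Among plastid and photosynthesis genes, the differences were PSBO2 -1.09, PSBO1 -0.68, RBCS3B -2.99 and SIGE 0.44. Among genes of indole defence compounds, the differences were CYP71A12 6.71, CYP71A13 5.47, PAD3 2.87, CYP82C2 5.41, CYP81F2 6.25 and MYB51 1.98. Among peroxidases and glutathione transferases, the differences were PER4 7.49, AT1G14550 7.31, AT5G39580 4.38 and GSTU12 5.63. Among other defence and stress genes, the differences were STZ 2.84, WRKY29 1.02, WRKY15 1.27, FRK1 2.54, PAL1 1.17, PXMT1 5.25, CYP81D8 4.33, NAC102 1.15 and ERD10 0.32. Among hormone genes, the differences were ARR3 -0.76, ARR4 -0.55, RR5 -0.61, GH3.3 2.92, EBF2 -0.24 and JAZ1 1.21. Among genes of transport, nutrients and terpenoids, the differences were APS1 0.26, SPX1 -0.78, PAP17 -0.27, ABCB15 0.50, TPS12 -1.64 and CYP710A2 -2.17. All 53 were also called without WT control replicate 2, none changed sign, and the largest ratio between the values with and without it was 1.36. The called differences of BCAT-2 (0.19) and GER2 (0.98) are not among the 53.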

How the results depend on the processing

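For gun1-101, the count of rises (630) became 1133 when its 2 groups were fitted alone and 1427 with raw library sizes, and that of falls (1558) became 1027 with raw library sizes. The count of rises of at least 2-fold (17) was 4 with DESeq2, 27 with raw library sizes and 85 with a 1.5-fold minimum, and that of falls (76) was 36 with DESeq2 and 272 with the 1.5-fold minimum. The WT rises (3938) became 2559 with its groups fitted alone and 6542 with raw library sizes. The causes were not tested. Leaving out 1 library gave 407 to 447 rises and 1182 to 1263 falls in gun1-101, 12 to 21 and 64 to 73 of at least 2-fold, 3274 to 4053 and 3615 to 4100 in WT, and 2430 to 2923 positive and 1761 to 2515 negative differences. Replicate numbers do not pair the libraries: same-numbered gun1-101 libraries correlated at -0.0264 to 0.0301, and the replicate block gave 653 rises and 1571 falls. Of 1853 gene values under alternatives none reversed and 5 lost the call: HSP17.4 with DESeq2 (0.75) and without 3 single libraries, given above, and STZ with its groups alone (-0.35). Of 1176 list counts 165 moved by over 1.5 times or to or from 0. In simulated counts with 200 changed genes in all, 9 of 50 changes of 1.2-fold were recovered.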
